A study of Mus musculus with 8 samples.

Results

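Insulin and the insulin-like growth factors act through a shared signalling chain, and 10 of its genes were followed here in mouse lungs with and without mechanical ventilation. They are the ligand Igf1, the receptors Igf1r and Insr, the adaptors Irs1 and Irs2, the binding proteins Igfbp3, Igfbp4, Igfbp5 and Igfbp6, and the mTORC1 inhibitor Ddit4. The members were taken by gene symbol from the platform annotation, which gave 11 probes for the 10 genes, of 16593 genes with a probe. Igfbp4 had 2 probes and each other member had 1.

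Whole lungs came from NOD/shi mice aged 6 to 12 weeks, 3 control animals without ventilation and 5 that were ventilated. NOD/shi is an inbred line prone to autoimmune diabetes, and both groups are of it. The labels do not state blood glucose, insulin treatment, feeding, ventilator settings or the length of ventilation. Each lung was read on 1 Illumina bead array, a glass array whose beads carry gene-specific probes. The comparison asked how the level of each transcript differed between ventilated and control lungs.

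Insulin and IGF-1 bind receptor tyrosine kinases, which phosphorylate the IRS adaptors, and these recruit PI3 kinase and activate Akt. Akt keeps FOXO transcription factors out of the nucleus and relieves the TSC brake on mTORC1, the kinase complex that drives protein synthesis. FOXO factors in turn raise transcription of Irs2 in liver. In extracellular fluid IGF-1 is held by IGF-binding proteins, which control how much of it reaches its receptor. In the lung, mesenchymal cells and macrophages are known sources of IGF-1, and Ddit4, also called REDD1, is induced by hypoxia, glucocorticoids and other stresses.

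The upstream sequences of Ddit4, Irs2 and Igfbp3 are shown because these were the members whose levels did not overlap between the groups, as described further on. Each is the 250 bases before the annotated start on the gene's own strand, 5′ to 3′, from RefSeq on build GRCm38.p6. Capitals mark the hypoxia response core ACGTG and the CCAAT box, on either strand. The Ddit4 sequence lies at chr10:59951771-59952020, that of Irs2 at chr8:11008930-11009179 and that of Igfbp3 at chr11:7213924-7214173, all on the minus strand.
Ddit4: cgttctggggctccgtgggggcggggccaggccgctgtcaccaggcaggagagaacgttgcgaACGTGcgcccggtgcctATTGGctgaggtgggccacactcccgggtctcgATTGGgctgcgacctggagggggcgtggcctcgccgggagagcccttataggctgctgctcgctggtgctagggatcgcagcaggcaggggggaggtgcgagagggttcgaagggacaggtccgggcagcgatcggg
Irs2: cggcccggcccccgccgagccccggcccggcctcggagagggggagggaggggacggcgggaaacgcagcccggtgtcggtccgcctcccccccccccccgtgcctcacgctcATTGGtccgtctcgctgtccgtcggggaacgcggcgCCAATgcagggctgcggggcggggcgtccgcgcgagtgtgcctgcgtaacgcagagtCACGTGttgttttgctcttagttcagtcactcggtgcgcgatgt
Igfbp3: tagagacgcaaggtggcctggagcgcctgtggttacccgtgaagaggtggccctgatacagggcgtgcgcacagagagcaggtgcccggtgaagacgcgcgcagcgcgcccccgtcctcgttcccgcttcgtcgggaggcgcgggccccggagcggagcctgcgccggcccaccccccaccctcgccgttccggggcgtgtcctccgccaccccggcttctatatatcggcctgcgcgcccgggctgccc

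The Ddit4 window held 1 hypoxia response core and 2 CCAAT boxes in reverse. The Irs2 window held 1 CCAAT box on each strand and the palindrome CACGTG, which carries the core on both strands and is also an E-box. None of these letters occurred in the Igfbp3 window. Promoters were listed for 9 of the 10 members, all but Insr. The core, or its reverse complement CACGT, was in 3 of the 9, namely Irs1, Irs2 and Ddit4, and in 16.6% of all 32851 listed promoters. CCAAT or ATTGG was in 4 of the 9 and in 33.8% of all. The FOXO core GTAAACA and the glucocorticoid receptor hexamer AGAACA, a part of the full element, with their reverse complements, were in 0 of the 9 windows and in 3.2% and 16.1% of all promoters. These matches describe letters within 250 bases and say nothing of binding.

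Brightness varied among arrays of each group, with a mean probe intensity from 54.3 to 332 and 8080 to 14313 probes detected at a detection p under 0.05. Control 2 was the dimmest. Controls 1 and 3 and ventilated 2 and 5 formed the brighter 4 arrays. Levels below are background-corrected, quantile-normalized log2 intensities, which cannot be set against each other between probes. Of 8 measured epithelial markers 7 were detected on all 8 arrays, as the lung label would have it, whereas Hopx did not pass the filter and Epcam was not analysed here. Control 1 carried more skeletal muscle RNA, with a summed level of 12.42 on the log2 scale against 6.72 to 8.37 on the other arrays. This sum covers 5 of 11 listed markers. Summed cardiac muscle markers, 6 of 7 listed, stood at 13.72 in control 1 and 13.79 in ventilated 4, against 11.69 to 12.92 on the other arrays. Precision is limited by the number of arrays, 3 against 5.

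**Figure D1:**
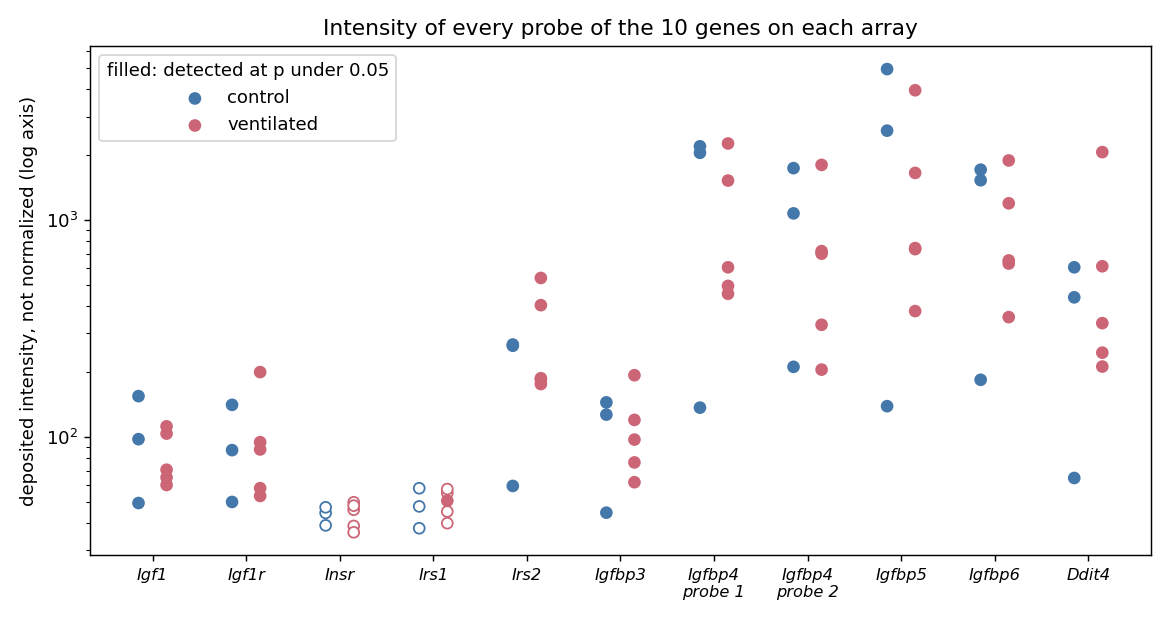
Deposited probe intensity, not normalized, on a log axis for each of the 11 probes, with controls in blue and ventilated lungs in red. Each point is 1 array and filled points were detected at p under 0.05: Insr was detected on 0 of 8 arrays and Irs1 on 1, while every other probe was detected on all 8.

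Of the 10 genes, 8 were detected on at least 3 arrays and entered the test. None of the 8 passed an adjusted p of 0.05 in limma, in either direction, in a fit over 10200 features of which 1.26% were called higher and 0.735% lower in ventilated lungs. Ddit4, Irs2 and Igfbp3 had an unadjusted p under 0.05, all 3 with a higher mean after ventilation, and 0 members had one in the other direction. Over all features 8.69% reached that p with a higher and 7.55% with a lower mean. The same 3 of 8 had all 5 ventilated values above all 3 control values, against 6.71% of features, and 0 of 8 had all values below, against 6.45%. The members were chosen with earlier results of these data known, so these shares are no test of the members as a set. The median log2 fold change, always ventilated minus control, was 0.05 over the 8 members and 0.01 over all features. Samples are separate lungs by their labels, and in whole lung fewer cells of a type and less RNA per cell cannot be told apart.

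Ddit4 stood highest against its control spread. It encodes a small protein that restrains mTORC1 through the TSC complex. Its level was 8.08, 8.17 and 8.10 in controls 1 to 3 and 8.71, 8.96, 9.15, 9.53 and 10.02 in ventilated lungs 1 to 5. After normalization the controls lay within 0.1 of each other, while the ventilated lungs were spread widely above them and did not overlap with them. On the authors' scaled values, which are linear, controls 1 to 3 read 280, 183 and 268 and the ventilated lungs 302 to 986. The group means were 8.12 ± 0.05 (SD, n = 3) and 9.27 ± 0.51 (SD, n = 5), a 2.22-fold difference. The log2 fold change was 1.15 with an SE of 0.29 and a 95% interval of 0.50 to 1.81, and it missed the threshold in limma (adjusted p = 0.0814, unadjusted p = 0.00263). In limma its adjusted p was 0.0488 when only probes detected on all arrays were tested and 0.0139 with array weights. It was 0.604 on the authors' scaled values, 0.536 with the replicate number as a block and 0.9997 with a common median. The call thus depends on these choices.

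On the deposited scale before normalization, the Ddit4 probe read 606, 64.7 and 440 in controls 1 to 3 and 211, 612, 335, 245 and 2057 in ventilated lungs 1 to 5. Ventilated 5 was the brightest by far, although its array was less bright on average than that of control 1. Without ventilated 5 the log2 fold change was 0.97, and without ventilated 1 it was 1.29. Within the brighter arrays it was 1.40 and within the dimmer ones, which hold a single control, 0.95. Leaving out any 1 array never brought the adjusted p under 0.05 (0.0711 to 0.182).

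Irs2, the adaptor that couples the insulin and IGF-1 receptors to PI3 kinase, gave a difference of like size. Its level was 6.75, 7.84 and 7.33 in controls 1 to 3 and 8.37, 8.37, 8.20, 9.13 and 8.09 in ventilated lungs 1 to 5. The groups did not overlap, and the gap between the highest control and the lowest ventilated lung was 0.25. Means were 7.30 ± 0.55 (SD, n = 3) and 8.43 ± 0.41 (SD, n = 5), a 2.19-fold difference. The log2 fold change was 1.13 with an SE of 0.31 and an interval of 0.44 to 1.82 (limma adjusted p = 0.102, unadjusted p = 0.00434). Without control 2 it was 1.40 (adjusted p = 0.0505) and without control 1 it was 0.85 (adjusted p = 0.25). With array weights, which count the arrays unequally, Irs2 passed the threshold at 1.24 (adjusted p = 0.00796). Its limma adjusted p was 0.443 on the authors' scaled values, 0.526 with the replicate number as a block and 0.9997 with a common median.

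Irs1, the other adaptor measured, was detected on 1 of 8 arrays, ventilated 4, at a detection p of 0.0338. Its intensity ran from 38.0 to 58.0 over the 8 arrays, and no fold is given. Insr, the insulin receptor, was detected on none of the 8 arrays, with intensities of 36.4 to 50.005 and detection p from 0.342 to 0.954. These probes were not well above background, which sets no limit on the receptor or adaptor protein in these lungs.

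**Figure D2:**
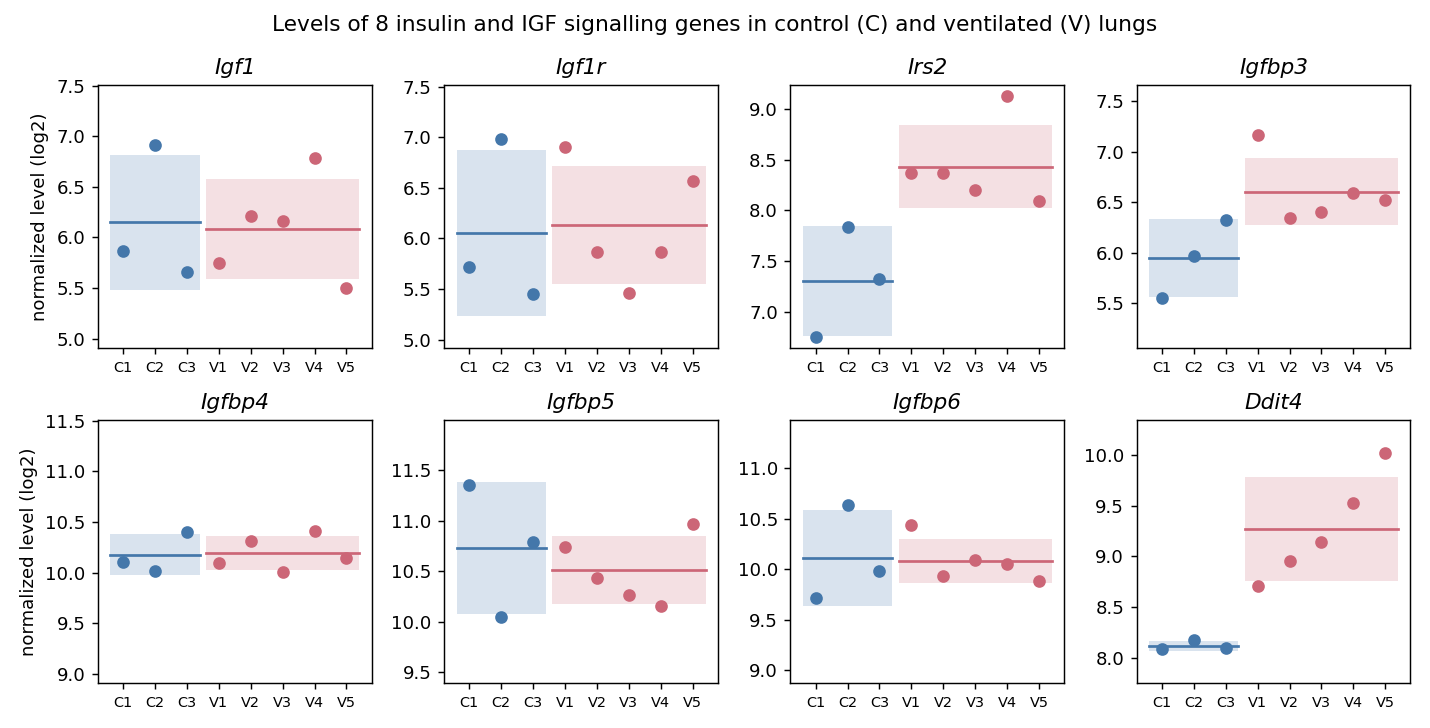
Normalized log2 level of the 8 tested genes on each array, C1 to C3 for controls and V1 to V5 for ventilated lungs, with every panel spanning the same log2 height. Lines are group means and shading is 1 SD (n = 3 and n = 5): in the panels of Ddit4, Irs2 and Igfbp3 all ventilated points lie above all control points, and in the other 5 panels the groups overlap.

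Igfbp3, the main carrier of IGF-1 in the circulation, was the third member without overlap, but by a narrow margin. Its level was 5.55, 5.97 and 6.33 in controls 1 to 3 and 7.17, 6.35, 6.40, 6.59 and 6.52 in ventilated lungs 1 to 5. Control 3 and ventilated 2 were 0.02 apart. Means were 5.95 ± 0.39 (SD, n = 3) and 6.60 ± 0.33 (SD, n = 5), and the log2 fold change was 0.66 with an SE of 0.27 (interval 0.07 to 1.24; limma adjusted p = 0.258). Its probe was dim, with intensities of 44.8 to 193, and on the dimmest array it was only just detected, at a detection p of 0.0326. The value was 0.24 on the authors' scaled values and 0.29 with a common median in place of quantile normalization.

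The other binding proteins did not separate the groups. Igfbp4, which mostly inhibits IGF action, averaged 10.18 ± 0.20 (SD, n = 3) in the control lungs. The ventilated lungs averaged 10.19 ± 0.17 (SD, n = 5). The interval of its log2 fold change, −0.44 to 0.47, was the narrowest among the 8 members. Igfbp6, which prefers IGF-2, averaged 10.11 ± 0.47 (SD, n = 3) without and 10.08 ± 0.22 (SD, n = 5) with ventilation, with an interval of −0.60 to 0.54. In the fit as reported both intervals leave out a 2-fold difference in either direction, whereas that of the second Igfbp4 probe, −1.33 to 0.52, does not. With a common median in place of quantile normalization the SE was 0.91 for Igfbp4 and 0.73 for Igfbp6, too large to leave one out.

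The probes of Igfbp4 differed in their pattern over the arrays. The brighter probe, which stands for the gene, ran from 10.01 to 10.41. The other probe ran from 9.12 in ventilated 3 to 10.86 in control 2, with ventilated 1 next at 10.68, and gave a log2 fold change of −0.41 with an SE of 0.42. Igf1r and Igfbp6 likewise had their highest values in control 2 and ventilated 1, at 6.98 and 6.90 for Igf1r and 10.64 and 10.44 for Igfbp6.

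Igfbp5, a binding protein that also attaches to extracellular matrix, averaged 10.73 ± 0.65 (SD, n = 3) in the control lungs. The ventilated lungs averaged 10.51 ± 0.34 (SD, n = 5). Controls 1 to 3 read 11.35, 10.05 and 10.78 and ventilated lungs 1 to 5 read 10.74, 10.43, 10.26, 10.15 and 10.97. The highest values came from control 1 and ventilated 5 and the lowest from control 2 and ventilated 4, which were also the 2 brightest and the 2 dimmest arrays. The log2 fold change was −0.22 (interval −0.91 to 0.48), −0.56 without control 2 and 0.10 without control 1, the lung with the skeletal muscle RNA. With array brightness as a block it was −0.06. The part of muscle RNA and of brightness in these values was not tested.

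Igf1, the ligand, and Igf1r, its receptor, were both dim, at 49.6 to 154 and 50.2 to 199 before normalization. Igf1 stood at 5.87, 6.91 and 5.66 in controls and 5.75, 6.22, 6.17, 6.79 and 5.50 in ventilated lungs 1 to 5. Its log2 fold change was −0.06, with an interval of −0.86 to 0.73. Igf1r stood at 5.72, 6.98 and 5.45 in controls and 6.90, 5.87, 5.46, 5.87 and 6.56 in ventilated lungs 1 to 5. Its log2 fold change was 0.08, with an interval of −0.83 to 0.99. In both genes control 2, the dimmest array, gave the highest value of all 8. Without it the log2 fold changes were 0.32 for Igf1 and 0.55 for Igf1r, neither past the threshold (limma adjusted p = 0.656 and 0.484). The intervals of both genes come close to a 2-fold difference, so that differences below that size were hard to detect here.

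**Figure D3:**
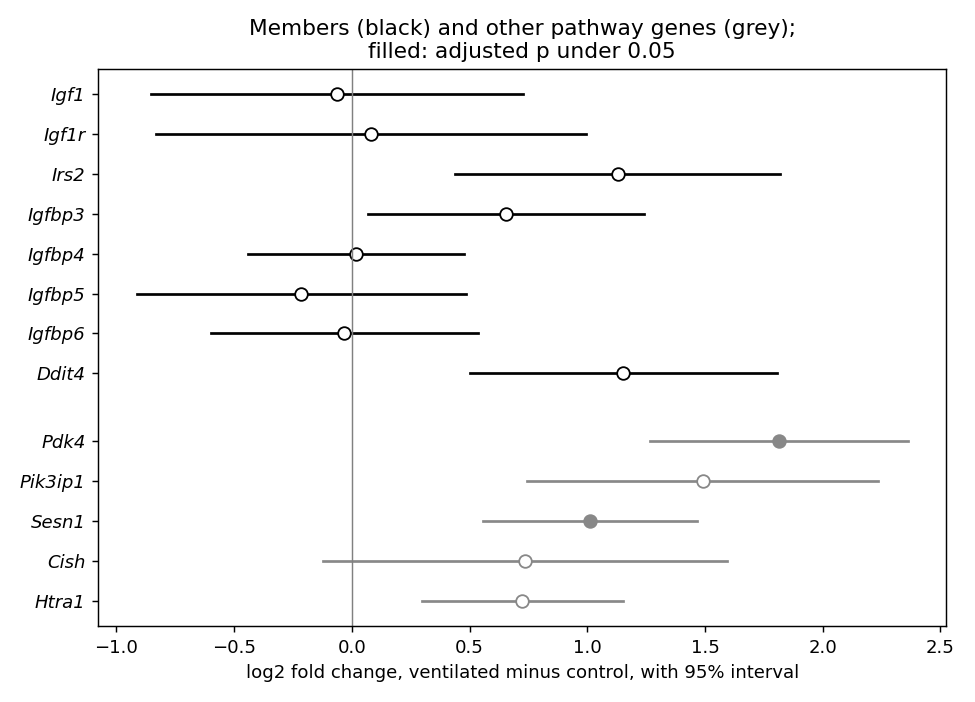
Log2 fold change, ventilated minus control, with its 95% interval for the 8 tested members in black and 5 other pathway genes in grey. Filled points passed an adjusted p of 0.05, which only Pdk4 and Sesn1 did, while the intervals of Ddit4, Irs2 and Igfbp3 lie above 0 without a call.

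The spread within groups also differed between members. The control SD ran from 0.05 for Ddit4 to 0.82 for Igf1r, and the ventilated SD from 0.17 for Igfbp4 to 0.59 for Igf1r. Ddit4 was the only member of the 8 whose ventilated SD exceeded its control SD. Neutrophil markers, as another cell type, stood apart between the groups. Of 9 measured, 5 rose and 0 fell, and their summed log2 level was 9.50 to 10.03 in controls and 12.79 to 14.06 in ventilated lungs, with Mmp8 not kept and Ly6g and Fpr1 not analysed here. Ventilated 1 had the highest summed neutrophil level and the lowest Ddit4 level of the ventilated lungs, and ventilated 5 the lowest neutrophil and the highest Ddit4 level. The part of neutrophils in the Ddit4, Irs2 and Igfbp3 values was not tested.

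The summed levels of fibroblast and smooth muscle markers, for cells that make IGF-binding proteins, overlapped between groups, but 2 single markers did not. Of the 10 fibroblast markers 1 fell, Tcf21, which mesenchymal cells of the lung need to develop, at a log2 fold change of −2.04 with an SE of 0.37 (limma adjusted p = 0.0257). Its level was 8.25, 9.82 and 8.93 in controls and 7.63, 7.16, 6.91, 6.58 and 6.50 in ventilated lungs 1 to 5. The call was lost when control 3 or any of ventilated 2, 3, 4 and 5 was left out (adjusted p = 0.0609 to 0.0861). Pdgfra, a fibroblast receptor, had all ventilated values above all controls without passing (0.76 with an SE of 0.28, limma adjusted p = 0.214). Both were named after their values were seen, and their part in the values of the IGF genes was not tested. The summed fibroblast level was 12.09 to 12.61 in controls and 12.29 to 12.40 in ventilated lungs over all 10 markers listed. The smooth muscle level was 12.24 to 12.78 and 12.09 to 12.77 over 7 of 8 markers, with Synpo2 not kept. The mesothelial level was 10.86 to 11.38 and 11.20 to 11.76 over all 7 markers, and the macrophage level 12.93 to 13.44 and 12.78 to 13.31 over 6 of 10. The macrophage sum mostly follows Lyz2, which averaged 12.99 in controls and 12.83 in ventilated lungs. All 6 macrophage markers had a lower mean after ventilation and 0 passed the threshold, with Siglecf not kept and Ear2, Cd68 and Csf1r not analysed here. The part of macrophages in the values of the IGF genes was not tested. The summed mesothelial level was highest in ventilated 1, at 11.76 beside 11.72 in ventilated 4, and Igfbp3 was also highest in ventilated 1. Of the single mesothelial markers only Upk3b and Krt19 were highest there. The part of mesothelial cells in the Igfbp3 values was not tested. Of 8 endothelial markers 7 had a lower mean after ventilation and 0 passed the threshold in limma, beside a median log2 fold change of 0.01 over all features. An unadjusted p under 0.05 was reached by 2, Tek (−0.67) and Ramp2 (−0.49), as by 7.55% of all features with a lower mean. Both were also below all controls in every ventilated lung, as were 6.45% of features. The summed endothelial level was 13.38 to 13.71 in controls and 13.03 to 13.43 in ventilated lungs, with Kdr not kept and Cldn5 not analysed here. The part of endothelial cells in the values of the IGF genes was not tested.

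**Figure D4:**
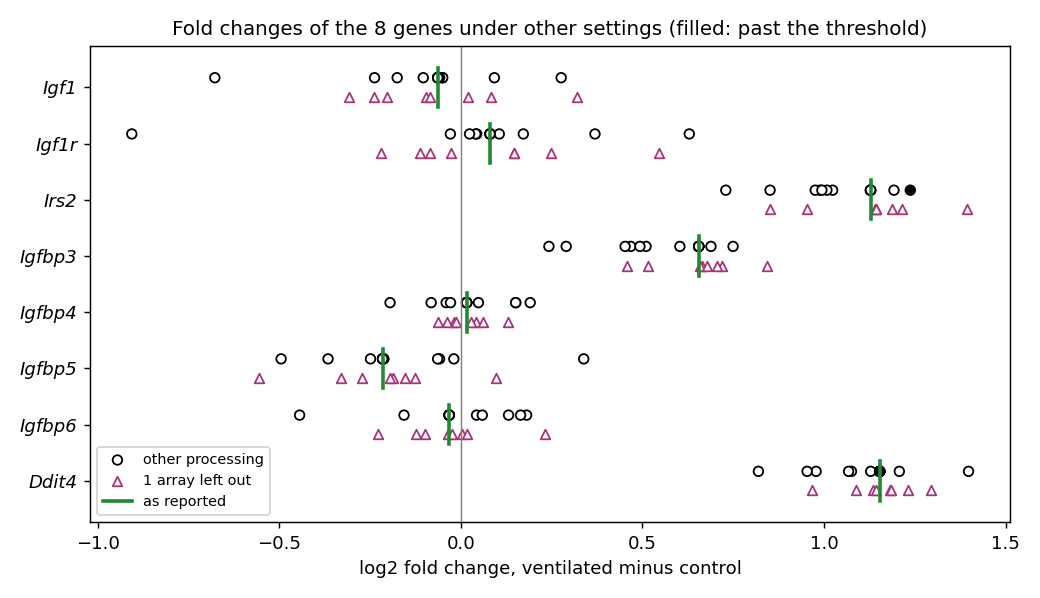
Log2 fold change of each of the 8 genes as reported (green line), under 15 other processing settings (circles) and with 1 array left out (triangles). Filled circles passed the threshold of that setting: Ddit4 did so under 3 settings and Irs2 under 1, and the values of Ddit4, Irs2 and Igfbp3 stayed above 0 in each.

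The rest of the pathway was read from 5 lists of 82 genes, of which 61 were measured and 2 rose, Pdk4 and Sesn1, while 0 fell, beside 1.26% higher and 0.735% lower over all features. At an unadjusted p under 0.05, 7 of the 61 had a higher and 2 a lower mean, beside 8.69% and 7.55% of all features. The lists, like the members, were chosen with earlier results of these data known. Among 12 measured FOXO factors and targets, Pdk4 rose 3.51-fold. It encodes a kinase that shuts off pyruvate dehydrogenase and is a known FOXO target in muscle and liver. Its level was 6.84, 5.96 and 6.63 in controls and 8.44, 8.20, 8.36, 8.42 and 8.01 in ventilated lungs 1 to 5. The groups were more than 1 log2 unit apart. The log2 fold change was 1.81 with an SE of 0.25 (limma adjusted p = 0.00624) and 1.55 to 1.99 with 1 array left out, always past the threshold. The call was lost with a common median (adjusted p = 0.9997), on the deposited scaled values (1.05, adjusted p = 0.19), with the replicate number as a block (adjusted p = 0.215) and within the brighter arrays (adjusted p = 0.0865). The list's median was 0.13, and Foxo1 itself stood at 0.14 with an SE of 0.33, while Foxo3 and Foxo4 were not kept.

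Among 15 measured genes of the mTOR complexes and their regulators, Sesn1 rose 2.02-fold. Sestrins restrain mTORC1 under stress, and Sesn1 is a target of p53 and FOXO. Its level was 8.42, 8.43 and 8.43 in controls and 9.49, 9.26, 9.41, 9.28 and 9.77 in ventilated lungs 1 to 5. After normalization the controls lay almost on the same value, and all ventilated lungs were above them. The log2 fold change was 1.01 with an SE of 0.21 (limma adjusted p = 0.0358), and the adjusted p was 0.0538 to 0.118 with any 1 array left out, so that each omission ended the call at 0.93 to 1.06. It was also lost in those 4 settings and within the dimmer arrays. The list's median was 0.20, with 10 values positive and 5 negative. Ddit4l, of the same list, went the other way without passing (−0.90 with an SE of 0.28, limma adjusted p = 0.145). It was detected on 2 of 3 control and 3 of 5 ventilated arrays. Sesn2 stood at 0.20 with an SE of 0.38 and Deptor at 0.21 with an SE of 0.25. These 3 genes were named after their values were seen.

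In the other lists no gene passed. Of 21 measured receptor-proximal and PI3K-Akt genes the smallest p was that of Pik3ip1, which encodes an inhibitor of PI3 kinase (1.49 with an SE of 0.34, limma adjusted p = 0.0529). It was detected on 2 of 3 control and all 5 ventilated arrays, its value ran from 0.55 on the deposited values to 2.41 within the dimmer arrays, and the list's median was 0.14. Of 8 measured ligands, carriers and proteases it was Htra1, a secreted protease that cleaves IGF-binding proteins (0.72 with an SE of 0.19, limma adjusted p = 0.0916), with a list median of −0.14. Of 5 measured genes from the growth hormone receptor to Igf1 it was Cish, an inhibitor of cytokine receptor signalling (0.74 with an SE of 0.39, limma adjusted p = 0.394), with a list median of 0.03. Cish was at 0.40 without control 3 and 0.41 with the replicate block.

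**Figure D5:**
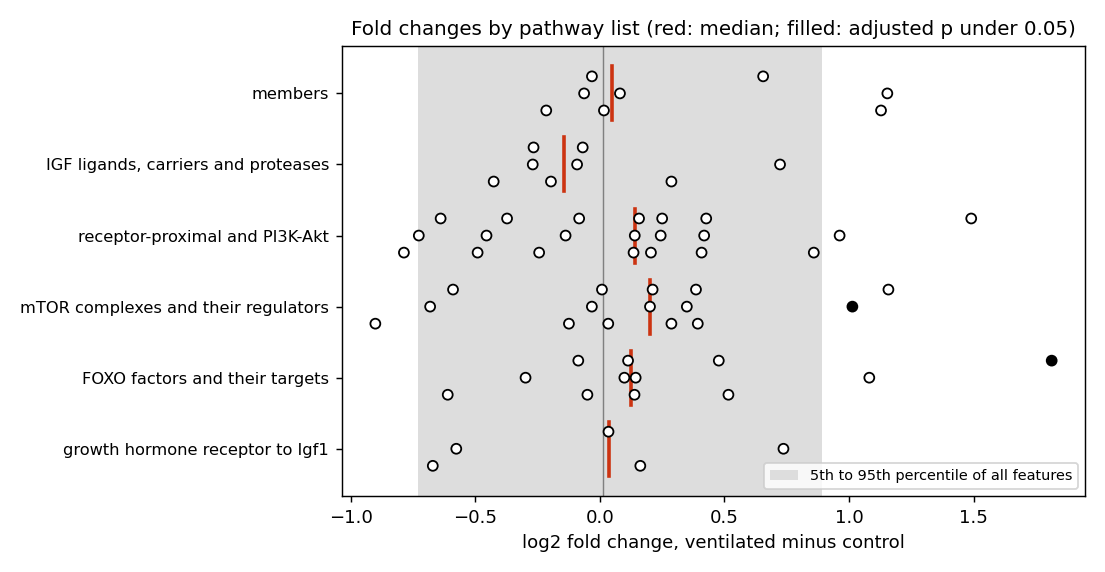
Log2 fold change of each measured gene of the 8 members and of 5 other pathway lists, 1 point a gene, with the list median in red and the range from the 5th to the 95th percentile of all features, −0.73 to 0.89, in grey. Filled points, Pdk4 and Sesn1, passed an adjusted p of 0.05, and the medians lie between −0.14 and 0.20.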

How the data were processed

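Total RNA of whole lungs was amplified into biotin-labelled cRNA for Illumina bead arrays, per the labels' protocols. The authors deposited linear intensities that are not normalized and, per the file headers, a detection p-value for each. A second deposited table holds the same intensities times 1 factor per array and served as an alternative. Scanner software was not given in the sources used here. In R 4.3.3, limma 3.58.1 corrected background with neqc (offset 16, negative controls inferred from detection p-values), quantile-normalized and took log2. Of 25697 probes, 13374 were kept, each with a detection p under 0.05 on 3 or more arrays, and the probe with the highest mean stood for a gene, which left 10200 features. Groups were compared by lmFit and eBayes, two-sided, with Benjamini-Hochberg adjustment over all features at 0.05. Only this step was tried on simulated data. Those had independent normal noise and no differences of array brightness, so they do not test the background correction, normalization or detection filter. Figures used Python 3.11.15 and matplotlib 3.10.9. The members, lists and settings were chosen with earlier results of these data known. Alternatives changed the background step, normalization, detection filter, probe choice, variance model, array weights and threshold, blocked on replicate number or array brightness, used the brighter or dimmer arrays alone, or left out 1 array. The limma p-values set each group difference against the spread within groups, which eBayes draws toward that of all features. With 1 array per lung, that spread holds differences of animals and of arrays alike. The rule for named genes takes all members and, from each other list, the genes past the threshold or the one with the smallest p. It also takes the genes with patterns nearest to each member past the threshold, of which there was none.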

Additional observations from a re-analysis of the deposited data

Results flagged for a closer look

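Irs2 in ventilated 4 stood apart from the other ventilated lungs. Its level of 9.13 left a gap to the next lung of 0.733 of the group's whole range, above the 95% limit of Dixon's test for 5 samples, which chance passes in about 1 in 20 groups, and 8 genes were examined. Without ventilated 4 the log2 fold change of Irs2 was 0.95 against 1.13 with all arrays, and Irs2 did not pass the threshold in either fit.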

How the results depend on the processing

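Of the 8 members, 0 passed the threshold as reported. The number higher became 1 with detection on all arrays or a threshold of 0.1 (Ddit4 in both), and 2 with array weights (Ddit4 and Irs2); the number lower stayed at 0 in all 15 settings. With 1 array left out both numbers were 0 to 0, and 0 of the 8 fits called a member. Under the 15 settings the log2 fold change was 0.82 to 1.40 for Ddit4, 0.73 to 1.24 for Irs2 and 0.24 to 0.75 for Igfbp3. Members near 0 changed sign, never past a threshold. With array weights Igf1 was at 0.28, Igfbp4 at −0.082 and Igfbp6 at 0.13. Within the brighter arrays Igf1 was at 0.092, Igfbp4 at −0.028 and Igfbp6 at 0.059, and within the dimmer ones, where the spread comes from the ventilated lungs alone, Igf1r was at −0.91 and Igfbp5 at 0.34. Igfbp6 was at 0.18 with a common median and 0.16 on the deposited values, Igfbp4 at −0.19 as the mean of its probes and Igf1r at −0.029 with brightness as a block. The cause was not tested. With 1 array left out the ranges were −0.31 to 0.32 for Igf1, −0.22 to 0.55 for Igf1r, −0.063 to 0.13 for Igfbp4, −0.56 to 0.10 for Igfbp5 and −0.23 to 0.23 for Igfbp6. With the replicate number as a block no member passed, Igfbp4 was at −0.040 and Igfbp6 at 0.043, Irs2 at 1.01 and Ddit4 at 0.82. Same-numbered arrays deviated with r of −0.34, −0.36 and 0.36 across features. Arrays of unlike number reached 0.526, and with so few pairs it cannot be told whether the numbers pair the samples.

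Over all features 204 were called as reported, against 0 by limma with a common median (116 at an unadjusted p under 0.05), 6 on the deposited values, 838 with array weights, 412 at a threshold of 0.1, 2 with the replicate block, 315 with brightness as a block, 11 using the brighter arrays, 86 using the dimmer ones, and 68 to 164 with 1 array left out. Pdk4 lost its call with a common median (1.33), the deposited values (1.05), the replicate block (1.86) and the brighter arrays alone (1.37). Sesn1 lost it in the same settings (1.02, 0.89, 0.96 and 1.09) and within the dimmer arrays (0.96). Tcf21 lost it with a common median (−1.94), the deposited values (−1.60), no detection filter (−2.04), the replicate block (−1.77), and the brighter (−1.76) or dimmer arrays alone (−2.78). Pik3ip1 passed in 6 of 14 and Htra1 in 7 of 15 settings. These alternatives for the other pathway genes and Tcf21 were chosen after seeing the data. Low signal over background limits Igf1, Igf1r and Igfbp3 and leaves Insr and Irs1 without a value.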

Other observations

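Control 2 and ventilated 1 lay at the same end of the range in some further IGF genes, in either direction. Igfbp2, a binding protein, was highest in these lungs, at 9.59 and 9.38 against 7.97 to 8.83 in the other 6. The ligand Igf2 was lowest in them, at 6.76 and 6.78 against 6.90 to 7.39, and so was Igfbp7, at 10.23 and 11.33 against 11.39 to 12.29. Igf2r was highest in control 2 (8.27) but not high in ventilated 1 (7.42). Across all features the deviations of these arrays from their group means had a Pearson r of 0.526, with the next pairs of a control and a ventilated array at 0.516 and 0.49. Features are not independent replicates, and both arrays were among the dimmer 4.

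Grb10, an adaptor that inhibits the insulin and IGF-1 receptors, had all 5 ventilated values below all 3 controls, as did 6.45% of all features. Of the 21 measured genes of its list it was the only 1 so placed, and 2 lay wholly above the controls. Control lungs averaged 8.78 ± 0.22 (SD, n = 3) and ventilated lungs 7.99 ± 0.36 (SD, n = 5). It did not pass the threshold (log2 fold change −0.79 with an SE of 0.25, limma adjusted p = 0.157). It was chosen after its values were seen.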
